A study of Homo sapiens with 33 samples.

Results

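A set of 10 genes of the Notch pathway were followed across 3 head and neck squamous cell carcinoma (HNSCC) cell lines during cetuximab therapy. They were the rows of the deposited count table with the symbols NOTCH1, NOTCH2, NOTCH3, JAG1, JAG2, DLL1, HES1, HES2, HEY1 and NRARP, which are 10 of its 56470 gene symbols. SCC1 (UM-SCC-1), SCC6 (UM-SCC-6) and SCC25, established lines sensitive to cetuximab, received PBS (untreated controls) or 100 nM cetuximab, an antibody that blocks EGFR, and polyadenylated RNA was sequenced daily. Each line had 6 PBS libraries, of days 0 to 5, and 5 cetuximab libraries, giving 33 in all. Treatment began 24 h after the cells were plated, and the medium was renewed each day. The descriptions of the medium disagree. The paper's methods give all 3 lines the same medium. Another description has SCC25 and SCC1 grown with hydrocortisone and SCC6 in high-glucose medium with non-essential amino acids. If that one holds, a difference between SCC6 and the other lines and a difference in medium cannot be told apart. In SCC6 the labels of cetuximab give day 2 to 2 libraries, called 2a and 2b here, and day 1 to none. There was 1 library per line, treatment and day, so the days stand in for replicates, and p-values measure only the spread between these libraries.

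Notch signalling passes between touching cells. A ligand of the Jagged or Delta family on one cell engages a Notch receptor on its neighbour, the receptor is cut by an ADAM protease and then by gamma-secretase, and its intracellular part enters the nucleus. There it binds the DNA-binding protein RBPJ and a Mastermind coactivator. Together they switch on targets such as some of the HES and HEY repressors and NRARP, which in turn limits the signal. In stratified squamous epithelium the pathway is known for moving basal cells towards differentiation, and NOTCH1 is often inactivated by mutation in HNSCC.

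Total counts per library ran from 28508758 to 80727478, with a median of 43002133. All 10 genes passed the filter on low counts in every comparison. The lowest count of any of them on days 1 to 5 was 18, for HEY1 in a PBS library of SCC6. All 8 squamous epithelial markers reached a median of 1 CPM (counts scaled for library size) in each line, although KRT5 and KRT14 had medians of only 5.51 and 4.61 CPM in SCC6. Of 7 fibroblast markers, 5 reached that level in SCC25, 2 in SCC1 and 1 in SCC6. The summed fibroblast markers were higher with cetuximab than with PBS in every line, at 252.7 to 405.6 against 146.6 to 197.3 CPM in SCC25, 49.95 to 146 against 21.19 to 32.87 in SCC1 and 8.97 to 114.9 against 2.89 to 5 in SCC6. These sums do not describe the whole list. In SCC6, COL1A1 reached 88.2 CPM, while COL1A2, DCN, LUM and PDGFRA stayed below 1 CPM in every library. In SCC1, COL1A1 and COL1A2 reached 88.7 and 55.5 CPM, while COL3A1, LUM, PDGFRA and PDGFRB stayed below 1 CPM in every library. Summed squamous markers were also higher with cetuximab in SCC1, at 7338 to 11250 against 2760 to 3847 CPM. Of 4 endothelial markers, 1 reached 1 CPM in SCC25, 1 in SCC1 and 0 in SCC6. Of the leukocyte markers, CD68 reached 1 CPM in each line, and PTPRC and CD3E stayed below it in every library. CD68 was lower with cetuximab in SCC1, at 6.32 to 9.5 against 17.28 to 47.87 CPM, and in SCC6, at 3.75 to 7.06 against 16.37 to 18.6 CPM. What part these shifts had in the changes below was not tested, and in bulk RNA fewer cells of a type and less RNA per cell cannot be told apart.

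In untreated cells the 3 lines carried different mixtures of receptor, ligand and target transcripts. Levels of different genes are compared as CPM per kb of the canonical GENCODE transcript, as means of the PBS libraries of days 1 to 5. JAG1, a Jagged ligand, led in SCC25 at 68.4 ± 5.22 (SD, n = 5) and in SCC1 at 27.8 ± 3.34. In SCC6 the target HES1 led at 34.5 ± 2.8, ahead of NOTCH2 at 24.2 ± 2.31 and JAG1 at 17 ± 0.935. NOTCH2 was the receptor with the highest level per kb in all 3 lines, with 21.3 ± 0.945 in SCC1 and 14.2 ± 0.933 in SCC25. NOTCH1 followed at 6.54 ± 1.29 in SCC1, 7.22 ± 2.09 in SCC6 and 8.04 ± 0.478 in SCC25. NOTCH3 stood beside NOTCH1 in SCC6, at 7.15 ± 2.21, but lay at 1.44 ± 0.27 in SCC1 and 0.639 ± 0.466 in SCC25. JAG2 was second in SCC25 at 32.1 ± 4.81 and far lower in SCC1 and SCC6, at 3.5 ± 0.694 and 4.2 ± 1.28. HES2 came last in SCC1 at 0.351 ± 0.0885, and HEY1 came last in SCC6 at 0.473 ± 0.176 and in SCC25 at 0.415 ± 0.0675. Some neighbours in these orders were closer than the larger of their SDs. They were NOTCH3 and NRARP in SCC1, NOTCH3 with NOTCH1, NRARP with JAG2, DLL1 with HES2 and HEY1 with DLL1 in SCC6, and HES2 with DLL1 and HEY1 with NOTCH3 in SCC25. HES1 with PBS reached 18.4 ± 1.47 in SCC25 and 8.22 ± 1.3 in SCC1.

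**Figure D1:**
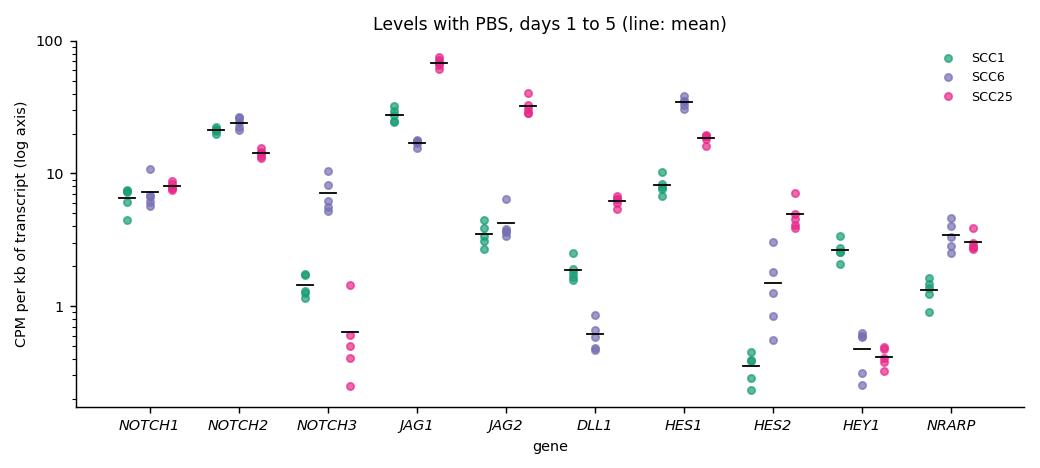
Levels of the 10 genes with PBS on days 1 to 5, as CPM per kb of transcript on a log axis. Each point is a library, coloured by line, and each bar is the mean of 5. JAG1 and JAG2 stand highest in SCC25, HES1 in SCC6 and HEY1 in SCC1.

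Differences between the lines in PBS were tested gene by gene with edgeR's quasi-likelihood test, and a gene was called when its Benjamini-Hochberg adjusted p over all genes tested was under 0.05. Between SCC1 and SCC6, 8 of the 10 genes were called, where 66.6% of all 21414 genes tested were. Between SCC1 and SCC25 the count was 9, against 66.5% of all genes, and between SCC6 and SCC25 it was 7, against 69.9%. With shares of that size among all genes, most members being called does not set them apart. HES1 differed between each pair of lines, although with the flow cell in the fit its gap between SCC6 and SCC25 was 0.39 on the log2 scale without a call (adjusted p = 0.23, edgeR). HES1 was lower in SCC1 than in SCC6 by a log2 difference of -2.09 (SE 0.112, adjusted p = 3.52e-16, edgeR). NOTCH3 was higher in SCC6 than in SCC25 by 3.51 on the log2 scale (SE 0.373, adjusted p = 1.41e-09, edgeR). HEY1 was higher in SCC1 than in SCC25 by 2.69 on the log2 scale (SE 0.201, adjusted p = 8.49e-13, edgeR). JAG2, DLL1 and JAG1 were all higher in SCC25 than in SCC6, and DLL1 had the greatest of these gaps at -3.30 for SCC6 over SCC25 (SE 0.21, adjusted p = 1.82e-14, edgeR). NOTCH1 was called between no pair of lines.

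With cetuximab the genes changed in different directions in the 3 lines. In SCC1, 6 of the 10 genes rose and 2 fell, where 22.7% of all 17984 genes tested rose, 22.1% fell and 44.8% were called. In SCC6, 2 rose and 2 fell, against 15.6% and 14.6% of all genes and 30.1% called. In SCC25, 1 rose and 2 fell, against 8.8% and 9.5% and 18.3% called. The median log2 fold change of the 10 genes was 0.47 in SCC1, 0.03 in SCC6 and -0.13 in SCC25, where the median of all genes was 0.02, 0.00 and 0.01. No gene was called in all 3 lines. NOTCH2 and DLL1 rose in both SCC1 and SCC6, JAG1 and HEY1 fell in both SCC1 and SCC25, and HES2 rose in those same lines. The opposite was seen for NRARP, which rose in SCC1 and fell in SCC6.

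**Figure D2:**
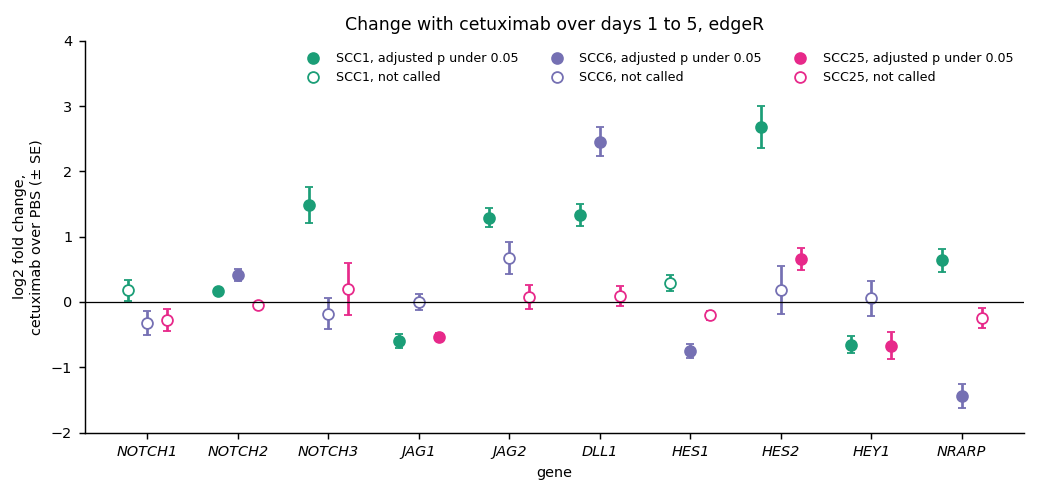
Log2 fold change of each gene, cetuximab over PBS, over days 1 to 5 with its standard error, 1 colour per line. Filled points are called at an adjusted p under 0.05, and open points are not. DLL1 in SCC6 (2.45) and HES2 in SCC1 (2.69) lie highest, and NRARP in SCC6 (-1.44) lies lowest.

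NOTCH1 (chr9:139388885-139440500, GRCh37, minus strand) encodes the receptor most studied in squamous epithelium, and its level showed no call in any line in the fit without covariates. In SCC1 it read 42.6, 70, 72.4, 69.1 and 58.7 CPM with PBS on days 1 to 5 and 51.6, 64.9, 65.5, 70.5 and 96.5 with cetuximab, and the ranges overlapped. The log2 fold change was 0.18 (SE 0.163, adjusted p = 0.402, edgeR) in SCC1, -0.32 (SE 0.183, adjusted p = 0.204) in SCC6 and -0.27 (SE 0.167, adjusted p = 0.282) in SCC25. In SCC6 the PBS levels themselves fell, from 94 and 104 CPM on days 0 and 1 to 65.6, 63.6, 58.4 and 54.1 on days 2 to 5, and cetuximab gave 54.6 (2a), 44 (2b), 51.2, 71.1 and 61.1. The PBS library of day 1 thus stood far above the rest of its group. When each library's trend with GC content was removed, the SCC6 change became -0.58 (adjusted p = 0.000247, edgeR) and the SCC25 change -0.17 (adjusted p = 0.0286), both then called. The SCC6 change was also called with the flow cell as a covariate (-0.30, adjusted p = 0.0412), which turned the sign in SCC25 (0.05, adjusted p = 0.878). With that covariate, here and for the genes below, the treatments were compared only within flow cells that held both. In SCC6 these were PBS days 2 to 5 with 2a, 2b and cetuximab day 3. In SCC25 they were all PBS libraries with cetuximab days 1 and 2. The SCC1 change was called when the GC trend and the replicate block were both in the fit (0.18, adjusted p = 0.0246). The transcript has a GC content of 63.48%.

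NOTCH2 (chr1:120454176-120643366, GRCh37, minus strand), the most abundant receptor here, rose in SCC1 and SCC6. In SCC6 it read 302, 300.7, 278.4, 242 and 257.5 CPM with PBS and 371.5 (2a), 339.6 (2b), 399.6, 379.4 and 393.1 with cetuximab. Each treated library lay above each PBS library, and the log2 fold change was 0.42 (SE 0.09, adjusted p = 0.00499, edgeR). The SCC1 change was small, and its ranges lay close without overlap, from 227.8 to 256.5 CPM with PBS to 260.2 to 275.2 with cetuximab, a log2 fold change of 0.17 (SE 0.047, adjusted p = 0.0115, edgeR). That call was lost with the flow cell as a covariate (adjusted p = 0.12), in a line where only the PBS library of day 5 shared a flow cell with the treated ones. In SCC25 the values were 150.1 to 177.3 CPM with PBS and 151.5 to 160.6 with cetuximab, with a log2 fold change of -0.05 (SE 0.051, adjusted p = 0.53, edgeR). The related gene NOTCH2NL held 663 to 2410 counts per library beside 6048 to 28319 for NOTCH2. The deposited NOTCH2 counts were not whole in any of the 33 libraries (tolerance 0.01), so some of its reads were divided with another feature. Which one was not tested, and the NOTCH2 values are uncertain to that extent.

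NOTCH3 (chr19:15269849-15311806, GRCh37, minus strand) rose in SCC1. With PBS it read 10.1, 11.4, 10.9, 15 and 14.9 CPM on days 1 to 5, and with cetuximab 14.9, 27.9, 34.3, 39 and 56.3. From day 2 on, each treated library exceeded each PBS library, while day 1 of cetuximab sat at the top of the PBS range. The log2 fold change was 1.49 (SE 0.273, adjusted p = 0.000753, edgeR), and 1.22 without a call when the flow cell was a covariate (adjusted p = 0.109). In SCC6 NOTCH3 ran from 45 to 91.4 CPM with PBS and from 40.3 to 83.3 with cetuximab, a log2 fold change of -0.18 (SE 0.237, adjusted p = 0.601, edgeR). Removal of the GC trend moved this value to -0.49 (adjusted p = 0.00601), which was called. In SCC25 the untreated level climbed with time, from 1.71 CPM on day 0 through 2.15, 3.55, 4.32 and 5.22 to 12.5 on day 5. Cetuximab gave 4.23, 5.82, 4.17, 8.15 and 9.22 there, a log2 fold change of 0.20 (SE 0.402, adjusted p = 0.777, edgeR). It was called with the GC trend removed and the replicate block together (0.48, adjusted p = 0.0114), and its sign turned with the flow cell as a covariate (-0.13, adjusted p = 0.912) and without PBS day 1 (-0.006, adjusted p = 0.994).

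**Figure D3:**
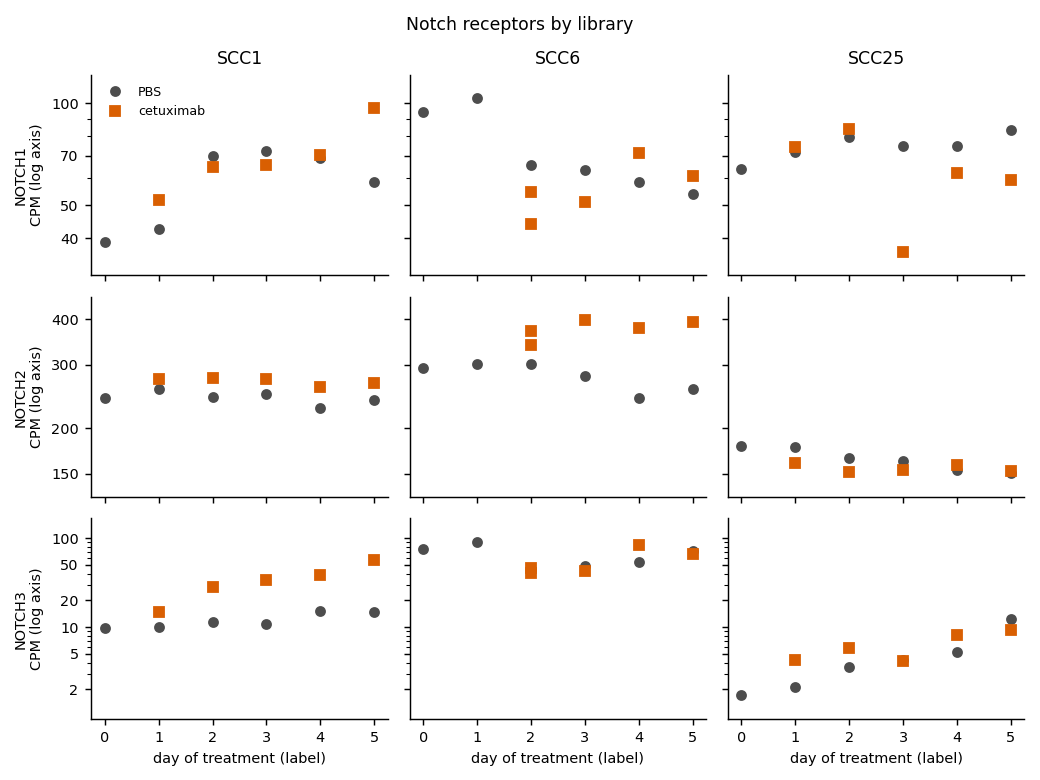
CPM of the receptors NOTCH1, NOTCH2 and NOTCH3 in each library by labelled day, 1 column per line, on log axes shared within a row. Grey circles are PBS and orange squares cetuximab, and both SCC6 libraries labelled day 2 are drawn there. NOTCH2 separates the treatments in SCC6 and NOTCH3 from day 2 on in SCC1, and untreated NOTCH3 climbs in SCC25.

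The ligands moved apart from one another. JAG1 (chr20:10618332-10654647, GRCh37, minus strand) fell in SCC1 and SCC25. In SCC25 it read 406.2, 424.7, 446, 388.2 and 366.3 CPM with PBS and 260.6, 271.5, 294.1, 293.8 and 264.2 with cetuximab. No treated library reached the PBS range, and the log2 fold change was -0.54 (SE 0.061, adjusted p = 0.000221, edgeR). The groups were also apart in SCC1, at 147.2, 176.2, 192.5, 165.1 and 145.7 CPM with PBS and 85.6, 117.6, 129.6, 100.3 and 104 with cetuximab. JAG1 fell there by 0.60 on the log2 scale (SE 0.106, adjusted p = 0.000558, edgeR), and by 0.42 with the flow cell as a covariate, where the call was lost (adjusted p = 0.1). SCC1 at day 0, before any treatment, read 86.9 CPM, as low as the treated libraries. In SCC6 the level was 91.7 to 105.8 CPM with PBS and 75.3 to 123.6 with cetuximab, with no call (log2 fold change 0.001, SE 0.123, adjusted p = 0.996, edgeR).

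JAG2 (chr14:105607319-105635161, GRCh37, minus strand), the other Jagged ligand, rose in SCC1. It read 25.9, 22.2, 19.5, 17.9 and 15.5 CPM with PBS and 40.7, 47, 44.3, 47.1 and 65.4 with cetuximab. The groups were well separated, with a log2 fold change of 1.29 (SE 0.152, adjusted p = 2.79e-05, edgeR). In SCC6, JAG2 missed the threshold, with 37.3, 19.6, 21, 21.8 and 21.4 CPM with PBS and 32.3 (2a), 23.5 (2b), 33.8, 59.1 and 48.3 with cetuximab (log2 fold change 0.67, SE 0.249, adjusted p = 0.0599, edgeR). One PBS library, of day 1, overlapped the treated range there. The SCC6 change was called with DESeq2 (0.66, adjusted p = 0.0373), with the flow cell as a covariate (0.49, adjusted p = 0.0099), with the GC trend removed (0.35, adjusted p = 0.00207) and without the PBS library of day 1 (0.88, adjusted p = 0.0106) or without 2b (0.81, adjusted p = 0.0189). Without both libraries of flow cell E, which are days 4 and 5 of cetuximab, it was 0.28 (adjusted p = 0.458), an alternative chosen after seeing the data. In SCC25 JAG2 ran from 163.6 to 231.8 CPM with PBS and from 108.4 to 250.7 with cetuximab, with a log2 fold change of 0.08 (SE 0.184, adjusted p = 0.8, edgeR), and 0.19 with the GC trend removed (adjusted p = 0.0201), which was called.

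DLL1 (chr6:170591294-170615653, GRCh37, minus strand), a Delta ligand, had the greatest change of the 10 genes in SCC6. With PBS it read 3.24, 2.22, 1.84, 2.47 and 1.77 CPM, and with cetuximab 10.6 (2a), 9.96 (2b), 11.2, 17.7 and 15.2. The lowest treated library was above the highest PBS library, and the log2 fold change of 2.45 (SE 0.221, adjusted p = 2.22e-05, edgeR) is 5.47-fold. In SCC1 the PBS values were 9.48, 7.17, 6.22, 5.97 and 6.72 CPM and the cetuximab values 20.6, 23.1, 15.9, 14.5 and 14.1, again with no overlap. The log2 fold change in SCC1 was 1.33 (SE 0.166, adjusted p = 4.4e-05, edgeR). In SCC25, which had the highest untreated level, DLL1 read 24.1, 25.6, 20.4, 22.5 and 24.4 CPM with PBS and 32.6, 31.5, 17.9, 20.9 and 20.9 with cetuximab. The treated libraries of days 1 and 2 lay above the PBS range, that of day 3 lay below it and those of days 4 and 5 near its lower end, and the log2 fold change was 0.09 (SE 0.158, adjusted p = 0.726, edgeR). In SCC25, cetuximab days 3 to 5 were sequenced on another flow cell than days 1 and 2 and all PBS libraries, and adding the flow cell to the fit gave 0.47 (adjusted p = 0.0145), which was called. Day and flow cell cannot be told apart in those 3 libraries. In the fit without cetuximab day 1 the value was -0.01 (adjusted p = 0.959).

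**Figure D4:**
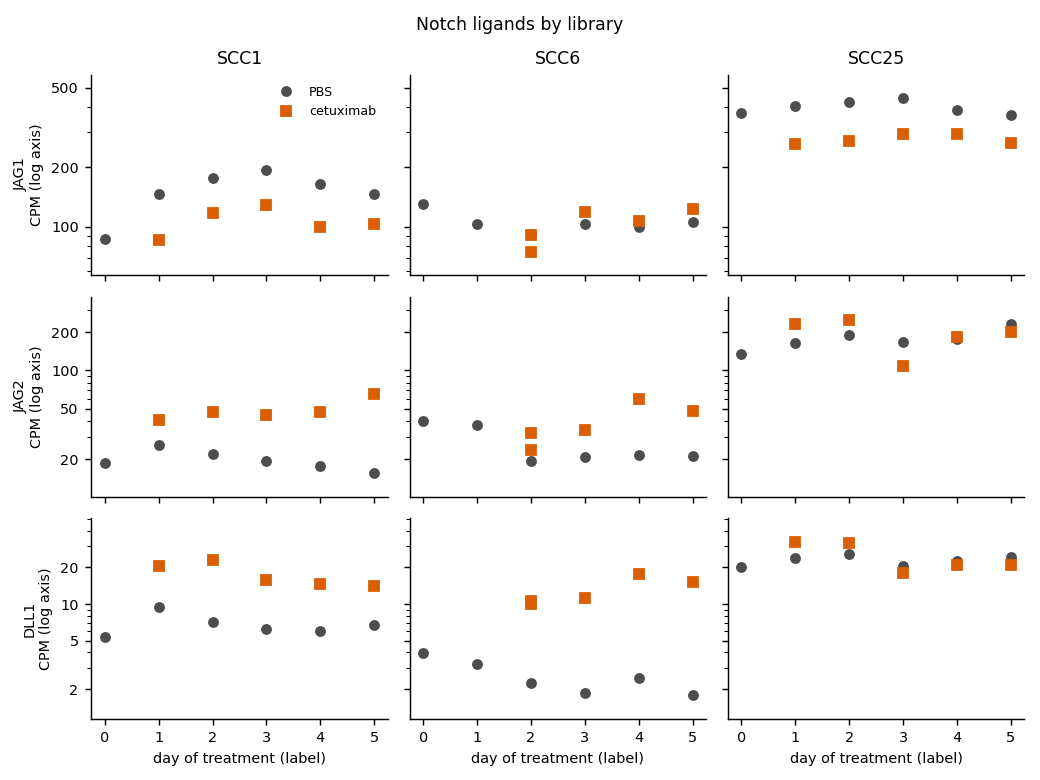
CPM of the ligands JAG1, JAG2 and DLL1 in each library by labelled day, 1 column per line, on log axes shared within a row, with PBS as grey circles and cetuximab as orange squares. JAG1 lies lower with cetuximab in SCC1 and SCC25, and DLL1 lies higher in SCC1 and SCC6.

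Of the HES, HEY and NRARP genes, HES1 and NRARP fell together in SCC6 while HES2 rose in SCC1 and SCC25. Whether HES2 answers to Notch in these cells was not tested, so its rise is no measure of Notch output. The promoter windows of HES1, NRARP and HES2, from 250 bases before to 50 bases after the annotated start, are shown. The sequences are RefSeq's on GRCh38.p14, 5′ to 3′ on the gene's strand, and 8 of the 10 genes had an entry. DLL1 and HEY1 had none. Other starts of a gene were not searched. Whether these starts are those of the GENCODE transcripts used for the levels was not tested. Capitals mark the letters TGGGAA, the core of the RBPJ motif, and CACNAG, the N box bound by HES proteins, each searched on both strands.

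HES1, chr3:194135898-194136197, plus strand: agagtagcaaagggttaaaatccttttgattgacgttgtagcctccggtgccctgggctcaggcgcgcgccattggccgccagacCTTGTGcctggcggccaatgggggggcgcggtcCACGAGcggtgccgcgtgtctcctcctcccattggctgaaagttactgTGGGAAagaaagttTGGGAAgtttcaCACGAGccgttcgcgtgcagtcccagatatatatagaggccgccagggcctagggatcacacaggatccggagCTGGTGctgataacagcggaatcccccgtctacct

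NRARP, chr9:137302222-137302521, minus strand: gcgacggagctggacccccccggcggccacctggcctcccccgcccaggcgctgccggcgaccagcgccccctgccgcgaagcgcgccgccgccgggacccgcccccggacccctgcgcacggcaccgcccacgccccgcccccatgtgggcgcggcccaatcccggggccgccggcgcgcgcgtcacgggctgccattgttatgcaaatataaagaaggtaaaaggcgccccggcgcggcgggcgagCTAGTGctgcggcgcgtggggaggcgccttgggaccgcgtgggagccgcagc

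HES2, chr1:6419870-6420169, minus strand: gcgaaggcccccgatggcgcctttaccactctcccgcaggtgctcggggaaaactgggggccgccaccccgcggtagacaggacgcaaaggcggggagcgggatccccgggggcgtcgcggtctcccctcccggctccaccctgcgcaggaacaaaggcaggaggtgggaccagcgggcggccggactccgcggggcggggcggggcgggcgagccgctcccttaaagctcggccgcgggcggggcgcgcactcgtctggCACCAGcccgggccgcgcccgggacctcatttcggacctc

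HES1 held 2 RBPJ cores on the gene's strand, with first bases at positions -84 and -70 from the start, and 4 N boxes. NRARP and HES2 each held 1 N box and no RBPJ core in this window. HES1 was the only one of the 8 genes with an RBPJ core there, and 6 of the 8 held an N box. NOTCH1's pair of N boxes overlap as 1 palindrome. Among all 35116 promoter windows of this length, 24% held at least 1 RBPJ core, 3.8% held at least 2, and 38% held at least 1 N box. These are matches of letters and no evidence of binding.

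HES1 (chr3:193853937-193856521, GRCh37, plus strand), a repressor and the best-known direct target of Notch, fell in SCC6. It read 48.3, 55.2, 52, 55.9 and 60.1 CPM with PBS and 34.1 (2a), 29 (2b), 28, 36.1 and 37.8 with cetuximab. The groups did not overlap, and HES1 fell by 0.75 on the log2 scale (SE 0.107, adjusted p = 0.000433, edgeR). In SCC1, HES1 had a log2 fold change of 0.29 (SE 0.128, adjusted p = 0.0822, edgeR), with 12.1, 13.1, 10.7, 12.5 and 16.2 CPM with PBS and 12.3, 15.3, 14.7, 17.7 and 18.4 with cetuximab. With the day as a replicate block this was called (0.29, adjusted p = 0.0261), as it was without cetuximab day 1 (0.37, adjusted p = 0.0261) or without PBS day 5 (0.38, adjusted p = 0.0202), while with the flow cell as a covariate its sign turned (-0.04, adjusted p = 0.912). In SCC25 it read 25.2, 30.1, 28.5, 30.9 and 30.4 CPM with PBS and 23.7, 27.5, 23.3, 26 and 24.4 with cetuximab. The treated library was the lower one on 5 of 5 days in SCC25, and the log2 fold change of -0.21 (SE 0.073, adjusted p = 0.068, edgeR) was called with the replicate block (-0.21, adjusted p = 0.0289), with DESeq2 (-0.20, adjusted p = 0.0484) with the GC trend removed (-0.21, adjusted p = 0.0186) and without PBS day 1 (-0.24, adjusted p = 0.0348).

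NRARP (chr9:140194083-140196723, GRCh37, minus strand), an ankyrin-repeat feedback inhibitor of Notch, fell in SCC6 with HES1. It read 12.2, 7.46, 6.62, 8.7 and 10.6 CPM with PBS and 3.5 (2a), 3.28 (2b), 3.19, 4.25 and 2.86 with cetuximab. All treated libraries lay below the PBS range, and the log2 fold change of -1.44 (SE 0.188, adjusted p = 0.000229, edgeR) corresponds to a level 2.72-fold lower. In SCC1 it rose from 4.27, 3.64, 3.28, 3.86 and 2.38 CPM with PBS to 4.01, 5.96, 5.02, 5 and 6.8 with cetuximab, and was higher on 4 of 5 days. Its log2 fold change in SCC1 was 0.64 (SE 0.173, adjusted p = 0.00936, edgeR), and the groups overlapped through day 1. In SCC25 NRARP ran from 7.16 to 10.2 CPM with PBS and from 4.73 to 8.72 with cetuximab (log2 fold change -0.25, SE 0.157, adjusted p = 0.3, edgeR).

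HES2 (chr1:6472478-6484730, GRCh37, minus strand), a HES family repressor, had the greatest change of the 10 genes in SCC1. With PBS it read 1.68, 1.64, 0.994, 1.23 and 1.93 CPM and with cetuximab 4.67, 6.34, 8.56, 12.3 and 15.7. The treated libraries were all above the PBS range, at a log2 fold change of 2.69 (SE 0.32, adjusted p = 3.13e-05, edgeR), which is 6.43-fold. In SCC25 HES2 started higher, at 16.7, 19.4, 17.5, 21.1 and 30.3 CPM with PBS, and read 28.3, 31.6, 26.2, 37.6 and 41.2 with cetuximab. It was higher on 5 of 5 days, with a log2 fold change of 0.66 (SE 0.169, adjusted p = 0.019, edgeR), and only the PBS library of day 5 entered the treated range. That call was lost with the flow cell as a covariate (0.52, adjusted p = 0.16), and the adjusted p was 0.0518 without PBS day 2, 0.0526 without cetuximab day 4 and 0.05 without cetuximab day 5. In SCC6 the PBS level fell each day, from 14.9 CPM on day 0 through 13.1, 7.66, 5.32 and 3.57 to 2.38 on day 5, while cetuximab gave 8.06 (2a), 8.47 (2b), 5.77, 7.89 and 6.98. Over all days the SCC6 change was not called (log2 fold change 0.18, SE 0.368, adjusted p = 0.744, edgeR). As labelled, 5 of 5 treated libraries there lay above the PBS library of their day, and PBS day 1, at 13.1 CPM, had no partner. Whichever of 2a and 2b were day 1 would lie below that value. HES2 counts as deposited were not whole in any library, so they too include divided reads. Counts of NOTCH3, JAG1 and JAG2 were whole in only 9, 24 and 19 of the 33 libraries.

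HEY1 (chr8:80674606-80680092, GRCh37, minus strand), a repressor related to HES1, fell in SCC1, the line with its highest level. It read 6.07, 5.6, 5.61, 7.36 and 4.6 CPM with PBS and 4.51, 3.64, 3.54, 3.36 and 3.3 with cetuximab, with the lowest PBS library just above the highest treated one. The log2 fold change was -0.65 (SE 0.134, adjusted p = 0.00166, edgeR), and -0.31 without a call with the flow cell as a covariate (adjusted p = 0.301). In SCC25 it was scarce, at 0.717, 0.887, 0.836, 1.04 and 1.07 CPM with PBS and 0.406, 0.582, 0.607, 0.798 and 0.452 with cetuximab, from 19 to 53 counts per library. Its fall there, a log2 fold change of -0.67 (SE 0.204, adjusted p = 0.0396, edgeR), was seen on 5 of 5 days but the call was lost when any 1 of PBS days 2 to 5 or cetuximab days 1, 2, 3 and 5 was left out (-0.56 to -0.69, adjusted p = 0.0509 to 0.107). It was also lost with the flow cell as a covariate (-0.87, adjusted p = 0.0831), with no filter (adjusted p = 0.0772), with library totals (adjusted p = 0.0522) and with day 0 added (-0.52, adjusted p = 0.168). In SCC6 HEY1 lay at 0.556 to 1.38 CPM with PBS and 0.94 to 1.3 with cetuximab, with a log2 fold change of 0.05 (SE 0.263, adjusted p = 0.901, edgeR).

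**Figure D5:**
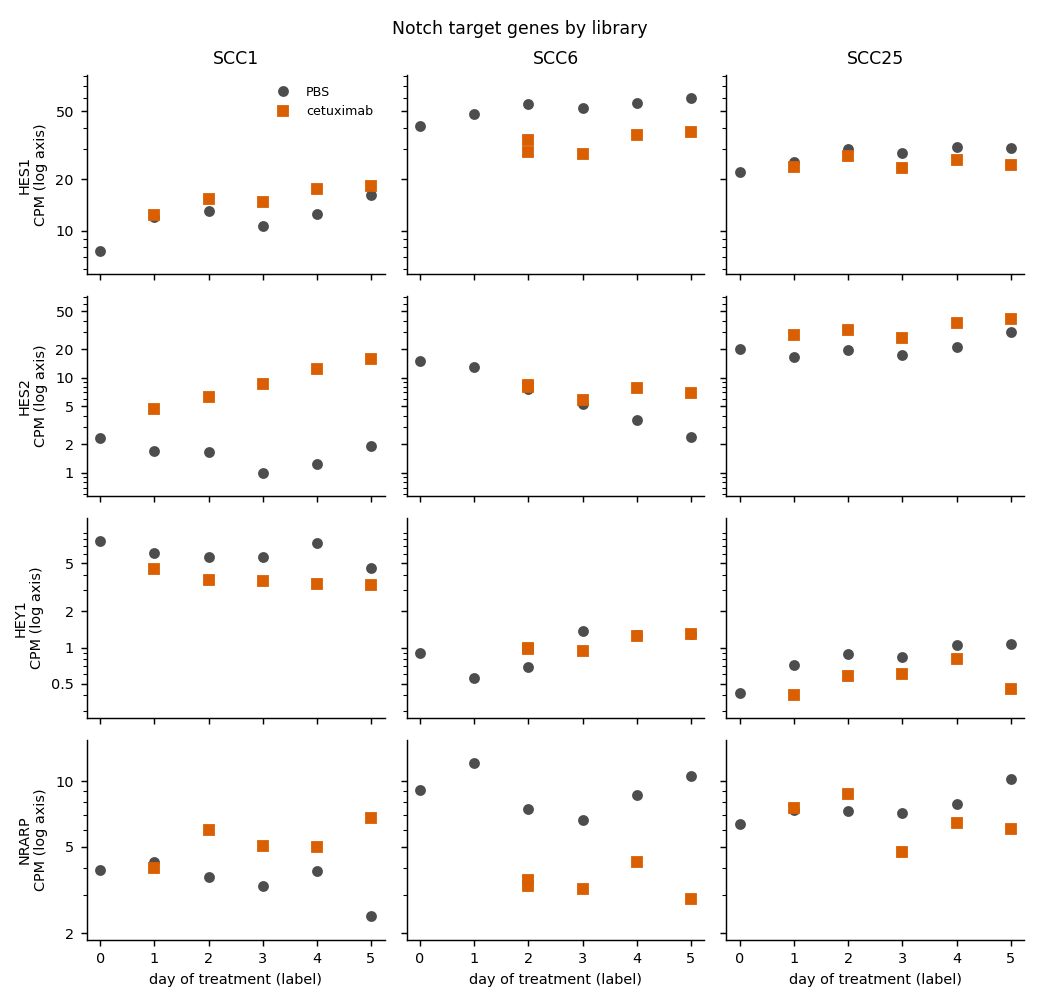
CPM of HES1, HES2, HEY1 and NRARP in each library by labelled day, 1 column per line, on log axes shared within a row, with PBS as grey circles and cetuximab as orange squares. HES1 and NRARP lie lower with cetuximab in SCC6, HES2 lies higher in SCC1 at each day, and untreated HES2 falls day by day in SCC6.

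Counted by library, the cetuximab and PBS ranges did not overlap for 6 of the 10 genes in SCC1 (NOTCH2, JAG1, JAG2, DLL1, HES2 and HEY1), where they did not for 31.2% of all genes tested. In SCC6 this held for 4 genes (NOTCH2, DLL1, HES1 and NRARP), against 19% of all genes, and in SCC25 for JAG1 alone, 1 of 10, against 15.1%.

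Whether the response itself differed between the lines was tested by the interaction of line and treatment over the 30 libraries of days 1 to 5. The response differed for 8 of the 10 genes, where 26.1% of all 21414 genes tested did. DLL1 (adjusted p = 7.25e-07, edgeR) and NRARP (adjusted p = 2.34e-06) had the lowest values, and NOTCH1 and HEY1 were not called. HEY1 (adjusted p = 0.0769, edgeR) was called with the replicate block and 2a as day 1 (adjusted p = 0.0404), with DESeq2 (0.0435), and without SCC25 cetuximab day 4 (0.046), SCC6 PBS day 3 (0.047) or SCC6 PBS day 5 (0.0482). With the flow cell in the fit 5 of the 10 genes were called, NOTCH3, JAG1 and HES2 no longer among them (adjusted p = 0.274, 0.128 and 0.132, edgeR), and NOTCH3 was also lost without the SCC1 cetuximab library of day 5 (adjusted p = 0.0691). Between SCC6 and SCC1, 7 genes differed, against 19.3% of all genes. NRARP was lower in its SCC6 response than in its SCC1 response by a log2 difference of -2.05 (SE 0.257, adjusted p = 7.87e-07, edgeR), HES1 by -1.01 (SE 0.153, adjusted p = 1.38e-05) and HES2 by -2.47 (SE 0.463, adjusted p = 0.000227). DLL1 responded more in SCC6 than in SCC1, by 1.15 (SE 0.275, adjusted p = 0.0031, edgeR), and JAG1 fell in SCC1 relative to SCC6, with a difference of 0.63 (SE 0.152, adjusted p = 0.00326). Of these differences, those of HES2 (-1.65, adjusted p = 0.111, edgeR) and JAG1 (0.35, adjusted p = 0.347) were not called with the flow cell in the fit, where the count was 4. Between SCC25 and SCC1, 5 genes differed, against 8.52% of all genes, all 5 with the lower response in SCC25. The count was 1 with the flow cell in the fit, and 3 without SCC25 PBS day 5, SCC25 cetuximab day 3 or SCC1 cetuximab day 5. NRARP, one of the 5, missed the threshold with the replicate block and 2a as day 1 (-0.89, adjusted p = 0.052). JAG2 was among them at -1.20 (SE 0.305, adjusted p = 0.0102, edgeR). HES1, also one of the 5, had -0.485 (SE 0.153, adjusted p = 0.044, edgeR). Its call was lost with no filter (adjusted p = 0.103) and with the flow cell in the fit (-0.119, adjusted p = 0.84). Many fits that left out 1 library lost it too (adjusted p = 0.0503 to 0.104). Between SCC25 and SCC6, 5 genes differed, against 17.5%, and the greatest of these was DLL1 at -2.37 (SE 0.274, adjusted p = 5.68e-07, edgeR).

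Early and later responses were set against each other within each line, the early one from 3 libraries per treatment (days 1 to 3) and the later one from 2 (days 4 and 5). In SCC1, 6 genes were called on days 1 to 3 and 7 on days 4 and 5, against 29.6% and 29.9% of all genes. The early count was 0 with the flow cell in the fit, and the later one 4 without cetuximab day 5. HES2 had log2 fold changes of 2.18 (SE 0.275, adjusted p = 0.000235, edgeR) and 3.16 (SE 0.333, adjusted p = 7.51e-05), and JAG2 of 0.96 (SE 0.138, adjusted p = 0.000511) and 1.77 (SE 0.173, adjusted p = 5.33e-05). In SCC6, 5 genes were called early and 6 late, against 20.3% and 37.8%. Cetuximab days 4 and 5 alone were on flow cell E there, so treatment and flow cell cannot be told apart in the later period of SCC6. DLL1 had 2.06 (SE 0.22, adjusted p = 0.000153, edgeR) and 2.93 (SE 0.274, adjusted p = 8.95e-05), and HES1 and NRARP were lower in both periods. NOTCH1 was lower on days 1 to 3 (-0.69, SE 0.188, adjusted p = 0.0254, edgeR), and JAG2 and HES2 were higher on days 4 and 5, both by 1.30 (adjusted p = 0.00661 and 0.0238). The NOTCH1 call was lost without cetuximab day 3 (-0.68, adjusted p = 0.0631) or 2b (-0.61, adjusted p = 0.0751), and that of HES2 without any 1 of the 4 libraries of days 4 and 5 (1.06 to 1.61, adjusted p = 0.0517 to 0.156). The early count in SCC6 was 3 with the replicate block and library 2b taken as day 1, where NOTCH1 (adjusted p = 0.0633) and NOTCH2 (adjusted p = 0.0933, and 0.0538 with 2a) lost their calls, and also 3 without cetuximab day 3. In SCC25, 2 genes were called early, JAG1 and HES2, against 7.84% of all genes, and JAG1 alone late, against 2.71%. The late JAG1 fall (-0.43, SE 0.089, adjusted p = 0.0358, edgeR) was no longer called when any 1 of PBS days 1 to 5 or cetuximab days 2, 4 and 5 was left out (adjusted p = 0.0539 to 0.311), and the late count was 2 with the replicate block and 4 without cetuximab day 3. The early count was 1 without PBS day 1 and 4 without cetuximab day 3. A change between the periods was called for 0 of the 10 genes, and for 0% of all genes in each of the 3 lines, by edgeR, with 1458 genes at an unadjusted p under 0.05 in SCC1, 5626 in SCC6 and 599 in SCC25. At an unadjusted p under 0.05 there were 2 of the 10 in SCC1, JAG2 and HES2, and 5 in SCC6, NOTCH1, NOTCH2, JAG2, DLL1 and HES2. DESeq2 called 3 of the 10 in SCC6 and 0 in SCC1 and SCC25.

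Some of the genes drifted with time in culture without drug, in the PBS libraries of days 0 to 5. In SCC1 no member was called (0 of 10 by edgeR, against 3.22% of all genes), with NOTCH1, NOTCH3, JAG2 and HES1, 4 of the 10, at an unadjusted p under 0.05. In SCC6, 5 were called, against 38.3%, and in SCC25 6, against 13.4%. HES2 in SCC6 fell by 0.56 per day on the log2 scale (SE 0.046, adjusted p = 0.000182, edgeR), from 14.9 to 2.38 CPM. NOTCH1 (-0.20 per day, adjusted p = 0.00458, edgeR), JAG2 (-0.21, adjusted p = 0.0166) and DLL1 (-0.22, adjusted p = 0.0223) also fell in SCC6, and HES1 rose slightly (0.09, adjusted p = 0.038). In SCC25, NOTCH3 rose by 0.55 per day (SE 0.05, adjusted p = 1.12e-05, edgeR), from 1.71 to 12.5 CPM. HEY1 (0.22 per day, adjusted p = 0.0436, edgeR), JAG2 (0.12, adjusted p = 0.00852), NRARP (0.11, adjusted p = 0.0416) and HES1 (0.09, adjusted p = 0.0267) rose there too, and NOTCH2 fell by 0.06 per day (adjusted p = 0.0378). Each slope rests on 6 libraries. Without day 0 the count was 2 in SCC6 and 2 in SCC25, and the slopes of HES1, JAG2 and DLL1 in SCC6 and of HEY1, NRARP, HES1, JAG2 and NOTCH2 in SCC25 lost their calls in it or in other fits that left out 1 library. HES2 and NOTCH1 in SCC6 and NOTCH3 in SCC25 kept theirs in each of these. In SCC6 the PBS libraries of days 0 and 1 were on another flow cell than those of days 2 to 5, so day and flow cell cannot be told apart there.

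A list of 57 other genes of the pathway gave context. In SCC1, 52 were tested, of which 15 rose and 15 fell, which is 28.8% each way against 22.7% and 22.1% of all genes. The receptor-modifying enzyme LFNG rose from 2.5 ± 1.04 CPM (SD, n = 5) to 13.8 ± 3.7, a log2 fold change of 2.49 (SE 0.261, adjusted p = 1.24e-05, edgeR). DLL4, another Delta ligand, fell from 3.36 ± 1.51 to 0.238 ± 0.0735 CPM (-3.79, SE 0.383, adjusted p = 9.46e-06, edgeR), opposite to DLL1. DTX4 (1.30), a Deltex ubiquitin ligase, and DLK2 (1.25), an atypical ligand, also rose by more than 1 on the log2 scale. NOTCH4 (-1.70) and HES7 (-1.19) fell by more than 1, both from low levels. The mean of NOTCH4 went from 1.12 CPM with PBS to 0.34 with cetuximab, and that of HES7 from 0.605 to 0.257. The HES7 call was lost with the flow cell as a covariate, and the NOTCH4 call was kept. In SCC6, 52 were tested, of which 12 rose (23.1%, against 15.6% of all genes) and 3 fell (5.77%, against 14.6%). LFNG rose there as well (1.67), as did the coactivator MAML2 (1.28), the corepressor TLE4 (1.54), the gamma-secretase subunit APH1B (1.51) and the ligand ubiquitin ligase NEURL1B (1.92), and DNER, an atypical ligand, fell (-1.14). These are 6 of 9 genes past 1 in SCC6. The other three, named after their values were seen, were DLL4, which fell (-1.77), and DLK2 (1.24) and the corepressor TLE2 (1.49), which rose. In SCC25, 53 were tested, of which 7 rose (13.2%, against 8.8% of all genes) and 3 fell (5.66%, against 9.5%). Here NEURL1 (-1.29), a ligand ubiquitin ligase, was the one past 1 on the log2 scale.

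The genes whose pattern was most like that of each member were sought among 9923 genes, by Pearson's r of log2 CPM over the 30 libraries of days 1 to 5 after the mean of each line was removed. These libraries share treatment, day and depth, so the values are descriptions. JAG1 was closest to VEGFA (r = 0.886), an angiogenic growth factor, and NOTCH2 to FN1 (0.941), which encodes fibronectin. DLL1 was closest to MAP4 (0.957), NDST1 (0.954) and FGFR2 (0.953), and JAG2 to GPC1 (0.964), a heparan sulphate proteoglycan. HES2 was closest to TRIM29 (0.92), PERP (0.914) and the basal keratin KRT14 (0.913). HES1 and NRARP had ZFP36L2 in common among their 3 closest genes (0.793 and 0.845). Among the members themselves, NOTCH2 and DLL1 (0.865), HES1 and NRARP (0.753) and JAG2 and DLL1 (0.748) were the pairs most alike, and HES2 ran opposite to HEY1 (-0.684) and JAG1 (-0.681).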

How the data were processed

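RNA was sequenced from 33 bulk libraries. Per the labels, the authors quantified transcripts with Salmon 0.8.2 on hg19/GRCh37 and deposited estimated counts per gene symbol, summed with tximport and not normalised. The annotation is not given in the sources used here. Estimated counts were rounded to whole numbers, filtered with filterByExpr, scaled by TMM and tested with the quasi-likelihood F test of edgeR 4.0.16 in R 4.3.3, two-sided, with Benjamini-Hochberg adjustment over all genes tested and a threshold of 0.05. CPM use the TMM factors, so a change is relative to the other genes of a library. Positions, lengths and GC content came from GENCODE v44 on GRCh37 by symbol, with 29806 of 56470 symbols matched, and promoters from RefSeq. Groups came from the labels. Values of 1 gene of the leukocyte list are not reported here. PBS of day 0 entered the day trend and 1 alternative. The fits were tested on simulated data.

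The members and gene lists were chosen with earlier results of these data known. Named are all 10 members and other pathway genes called with a log2 change of 1 or more in size (at most 6 per line, by p, besides those marked above). The 3 genes most like each member were sought. Only some of them are named, and none for NOTCH1, NOTCH3 and HEY1.

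Libraries of a line and day were collected together, so day pairs them. Deviations from the group means correlated between PBS and cetuximab of the same day at 0.209, 0.128, 0.078, 0.063 and 0.082 in SCC1, 0.124, 0.255, 0.192, 0.173 and 0.214 in SCC25, and 0.25, -0.072 and 0.079 on days 3 to 5 in SCC6. PBS day 2 of SCC6 gave 0.262 with 2a and 0.313 with 2b. Libraries of different days reached 0.141 in SCC1, 0.29 in SCC25 and 0.531 in SCC6, so the same day did not stand apart. The main fits left the pairing out, and it entered as an alternative. No 2 libraries of a group agreed within sampling noise (lowest chi-square per degree of freedom 5.93). Alternatives were DESeq2 1.42.0, its size factors, no filter, each library left out, day as a block, flow cell and day 0 added. Others were removal of the GC trend (a spline with 5 degrees of freedom, fitted in R) and a minimum fold change. Flow cells are from the sample titles.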

Additional observations from a re-analysis of the deposited data

Results flagged for a closer look

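Of 60 groups of 5 libraries (10 genes, 3 lines, 2 treatments), 5 held a library far from the other 4 by Dixon's criterion, and chance gives about 1 in 20. In SCC6 with PBS, the library of day 1 was high for NOTCH1 (103.9 CPM, next 65.61) and for JAG2 (37.31, next 21.84). In SCC1 with cetuximab, day 5 was high for JAG2 (65.39, next 47.12) and day 1 for HEY1 (4.508, next 3.637). In SCC25 with PBS, day 5 was high for NRARP (10.24, next 7.908).

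The response to cetuximab differed between the lines, by edgeR's test of the line-by-treatment terms, for NOTCH2 (adjusted p = 0.000361), NOTCH3 (0.0239), JAG1 (0.00366), JAG2 (0.0124), DLL1 (7.25e-07), HES1 (4.12e-05), HES2 (0.000338) and NRARP (2.34e-06). For NRARP the directions were opposite, with a log2 fold change of 0.64 in SCC1 and -1.44 in SCC6.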

How the results depend on the processing

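Counts below are of the 10 genes. A log2 fold change of at least 1 in size left 4 calls in SCC1, 2 in SCC6 and 0 in SCC25. Removal of the GC trend gave 7 in SCC6 and 6 in SCC25, and with the replicate block added 7 in SCC6, with 2a or 2b as day 1, and 7 in SCC25. With the flow cell in the fit the counts were 4 in SCC1, 6 in SCC6 and 2 in SCC25 over all days, 0 in SCC1 on days 1 to 3, 4 and 5 in SCC25 on days 1 to 3 and on days 4 and 5, 1 for its change between periods, 5 for the response between lines, 4 for SCC6 minus SCC1 and 1 for SCC25 minus SCC1. That term could not be fitted to the SCC6 periods, since cetuximab days 4 and 5 alone were on flow cell E. In the SCC25 periods it rested on cetuximab day 3 against days 1 and 2, and in SCC1 on PBS day 4 against day 5. With so few libraries behind the term, the counts of the periods decide nothing about the flow cell. Over all days, the fits of 1 line compared the treatments only within flow cells that held both. The change between periods had 1 call in SCC1 and 4 in SCC6 with no filter, and 3 in SCC6 with DESeq2. On days 4 and 5 in SCC25 the count was 2 with no filter, with DESeq2 and with the replicate block, and 0 with library totals. The replicate block gave 3 in SCC6 on days 1 to 3 with 2b as day 1. The block alone added the calls of HES1 in SCC1 and SCC25 and changed no other call in the comparisons of cetuximab with PBS within a line over all days. With 2a as day 1 it added HEY1 to the response between lines (0.0404) and took NRARP from SCC25 minus SCC1 (0.052). With the GC trend removed, the block also added NOTCH1 in SCC1 (0.0246) and NOTCH3 in SCC25 (0.0114). Among all genes, the flow cell lowered the calls over all days from 8061 to 4197 in SCC1 and from 3496 to 1417 in SCC25, removal of the GC trend raised them to 5431 in SCC25, and to 7012 with the block, and without flow cell E they fell from 5238 to 2868 in SCC6. The cause of these shifts was not tested.

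Leaving out 1 library at a time gave 1 to 4 calls in SCC25 over all days (1 without PBS day 2 or cetuximab day 5), 4 to 7 in SCC1 and 0 to 4 in SCC25 on days 4 and 5, 3 to 6 in SCC6 and 1 to 4 in SCC25 on days 1 to 3, 0 to 1 for the SCC6 change between periods, 0 to 1, 2 to 5 and 2 to 6 for the PBS trend in SCC1, SCC6 and SCC25, and 3 to 6 for SCC25 minus SCC1. The trend counts were lowest without day 0 in SCC6 (2) and without day 0, 1 or 5 in SCC25 (2).

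Signs turned only for genes without a call, besides HEY1 in SCC1 on days 1 to 3 with the flow cell (0.109). The flow cell turned HES1 in SCC1 (-0.036), JAG1 (-0.106) and HEY1 (-0.287) in SCC6, and NOTCH1 (0.053), NOTCH3 (-0.133) and NRARP (0.035) in SCC25. JAG1 in SCC6, at 0.001, was -0.008 with DESeq2 or its size factors, -0.019 and -0.018 with the block (2a or 2b as day 1), -0.065 and -0.064 with block and GC, -0.046 with GC alone, and -0.065 with day 0 added, which gave -0.102 for HES2. Among alternatives chosen after seeing the data, SCC6 without both libraries labelled day 2 gave 0.008 for NOTCH3, SCC6 without flow cell E gave -0.111 for JAG1 and -0.117 for HEY1, and library totals gave 0.00017 for NOTCH2 in SCC25. With 1 library left out, JAG1, HES2 and HEY1 in SCC6 ran from -0.063 to 0.089, -0.027 to 0.62 and -0.109 to 0.168, and NOTCH3, JAG2 and DLL1 in SCC25 from -0.006 to 0.76, -0.018 to 0.239 and -0.014 to 0.197.

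Over all days, JAG2, DLL1, HES2 and NRARP in SCC1, NOTCH2, DLL1, HES1 and NRARP in SCC6 and JAG1 in SCC25 kept their direction and call under each alternative run, the minimum fold change aside. Depth limits HEY1 most, with 18 to 93 counts per library in SCC6 and 19 to 53 in SCC25.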
